A study of Mus musculus with 18 samples.

Results

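The 40 genes described here are type I interferon-stimulated genes, measured in RNA sequencing of mouse choroid plexus, the source of cerebrospinal fluid inside the brain ventricles. They were chosen by symbol from a count table of 50584 genes. All 40 were in the table, and all 40 passed the filter on low counts that left 16598 genes for testing. Of these, 28 would pass on the MRL/+ libraries alone, and 12 passed only through their level in MRL/lpr, so that a difference was built into their choice: Epsti1, Ifi44, Isg15, Isg20, Mx1, Mx2, Oas1a, Oas1g, Oas2, Oas3, Oasl1 and Usp18. There were 4 groups: MRL/lpr mice at 12 weeks (6 libraries) and 16 weeks (6 libraries) of age, and MRL/+ mice at 12 weeks (3 libraries) and 16 weeks (3 libraries). Both strains share the MRL background, and MRL/lpr mice also carry the lpr allele of the death receptor gene Fas and develop a lupus-like disease. The allele is inherited and acts in every cell of the mouse, so strain differences are not tied to the choroid plexus. The labels name no treatment, and nothing in them states whether replicate libraries are separate animals. The p-values below therefore measure the spread between these samples, which may be technical in part.

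Type I interferons are secreted proteins of the alpha and beta families that cells make when they sense foreign or misplaced nucleic acid. They bind a shared receptor, Ifnar1 with Ifnar2, whose kinases Jak1 and Tyk2 start the signal. Transcription factors, Stat2 and Irf9 among them, then bind a promoter element called the interferon-stimulated response element, or ISRE, and turns on genes that hinder viruses. A raised level of such genes in blood is a well known feature of human lupus. Many of them also respond to interferon gamma, which is made by T cells and natural killer cells and acts through a receptor of its own.

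The promoters of several members show the element itself, and these are printed because they show the sequence through which the pathway acts. Promoter windows of 300 bases, from 250 before to 50 after each start site, were taken from RefSeq on GRCm38.p6. Windows were found for 30 of the 40 members, and the other 10 were not in the table. The motif searched was the ISRE core GAAANNGAAA, on both strands, so that it reads TTTCNNTTTC on the other strand. Of the 30 matched members, 12 (40%) held it in at least 1 window: Bst2, Ddx60, Eif2ak2, Ifit1, Ifit3, Ifitm3, Isg15, Oas1a, Oas1g, Oas3, Rsad2 and Trim30a. Over every gene with a window, 1079 of 27025 (3.99%) held it, and 1131 of 32851 windows (3.44%). A match is a run of letters, not a measured binding site. The sequences below run 5′ to 3′ in the direction of the gene and end before its start site. Capitals mark the match nearest to the start site, and a further match next to it, where there is one, is in lower case.
Ifit1 (chr19:34640784-34640833, + strand): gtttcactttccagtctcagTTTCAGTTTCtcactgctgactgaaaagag
Ifit3 (chr19:34583387-34583436, + strand): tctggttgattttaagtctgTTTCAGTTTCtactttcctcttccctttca
Isg15 (chr4:156200855-156200904, - strand): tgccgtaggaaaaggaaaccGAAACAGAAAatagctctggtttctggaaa
Oas3 (chr5:120777705-120777754, - strand): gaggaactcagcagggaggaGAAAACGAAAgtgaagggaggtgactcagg
Rsad2 (chr12:26456543-26456592, - strand): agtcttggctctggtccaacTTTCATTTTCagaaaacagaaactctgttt
Bst2 (chr8:71537567-71537616, - strand): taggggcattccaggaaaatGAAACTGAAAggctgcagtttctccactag
Trim30a (chr7:104465200-104465249, - strand): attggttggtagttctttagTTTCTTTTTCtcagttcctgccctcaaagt
In the match nearest to the start site, Ifit1, Ifit3, Oas1a, Oas1g and Bst2 carry the same core, GAAACTGAAA. It lies on the other strand in Ifit1 and Ifit3 and so reads TTTCAGTTTC there. In all, the window of Isg15 held 3 matches and those of Ifit1, Ifit3, Ifitm3, Bst2, Ddx60, Oas1a and Oas1g 2 each.

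Facts of the series that touch these genes are few. Total counts ran from 11164284 to 14602253 per library. Fas, the gene of the lpr allele, did not separate the strains at gene level: at 12 weeks its median was 2.18 CPM (a gene's count scaled to the library's total) in MRL/lpr and 1.33 CPM in MRL/+, at 16 weeks 3.18 CPM and 2.44 CPM, and neither difference was called (adjusted p = 0.182 and 0.528, edgeR). Counts over the whole gene pool exons on both sides of the lpr insertion, so this does not check the strain labels. The choroid plexus was present by its markers in every library, with 23 epithelial genes summing to between 163155 and 325859 CPM. A sum of 8 leukocyte markers, by contrast, ran from 117 to 1074 CPM in MRL/lpr and from 23.2 to 38.1 CPM in MRL/+, without overlap. In such bulk tissue, more cells of a type and more RNA per cell cannot be told apart. Tissue from outside the choroid plexus stood out in 4 libraries: pineal markers in MRL/lpr 12 weeks replicates 1 and 4, cerebellar markers in MRL/+ 12 weeks replicate 1 and muscle markers in MRL/+ 16 weeks replicate 1. Cerebellar markers were not limited to these: their sum was 321 CPM in that MRL/+ library, and 173, 113 and 99.7 CPM in MRL/lpr 16 weeks replicates 1, 2 and 3 and 155 CPM in MRL/lpr 12 weeks replicate 2, against at most 51.7 CPM in the rest. Pituitary markers differed with age in MRL/lpr, with a median sum of 62.1 CPM at 12 weeks and 19.8 CPM at 16 weeks (MRL/+ 35.0 and 23.4 CPM). The highest pituitary sums, 88.1 and 85.6 CPM, were in MRL/lpr 12 weeks replicates 3 and 2, which are not among the 4 libraries. The part of such tissue in the results was not tested beyond refits without those 4 libraries and without each library in turn.

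The log2 fold change of MRL/lpr against MRL/+ was above 0 for each of the 40 genes at both ages. The same held for 48.5% of all tested genes at 12 weeks and 52.2% at 16 weeks. At 16 weeks 36 of 40 were called higher, against 8.49% of all tested genes, and 0 lower, against 2.64%. A call is an adjusted p under 0.05 from edgeR's quasi-likelihood test, with Benjamini-Hochberg adjustment over all 16598 genes. The median log2 fold change of the 40 was 3.78, from 0.49 to 8.48, beside a median of 0.03 over all tested genes. For 36 of 40 the lowest MRL/lpr library lay above the highest MRL/+ library, which held for 9.91% of all genes. At 12 weeks 12 of 40 were called higher, against 5.01% of all genes, and 0 lower, against 1.34%, with a median of 2.42 and a range from 0.08 to 4.60. Of the 28 members that pass the filter on MRL/+ alone, 8 were called at 12 weeks and 24 at 16 weeks. The groups did not overlap for 33 of 40 at that age, against 8.59% of all genes. At an unadjusted p under 0.05 stood 32 members at the earlier age (12.1% of all genes, higher) and 38 at the later (16.0%). Each of the 40 had the larger fold change at 16 weeks, although the interaction test of that difference passed for none. All 12 genes called at 12 weeks were also called at 16 weeks: Ifit1, Isg20, Usp18, Oas1b, Ifi35, Ifi44, Rtp4, Xaf1, Parp14, Ifitm3, Sp100 and Epsti1. The 4 not called at either age were Herc6, Samd9l, Trim25 and Eif2ak2.

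The counts of calls depended on the small control groups, and the fold changes at 16 weeks on 1 MRL/lpr library. Without MRL/lpr 16 weeks replicate 1 the 16-week median was 2.89 in place of 3.78, and all 40 estimates were lower. Without 1 MRL/+ library at a time, the number called at 12 weeks fell to 2, 3 and 2 (without replicates 1, 2 and 3), and the number at 16 weeks to 18, 17 and 13. The share of all genes called higher also fell, from 5.01% to 1.33%, 1.88% and 1.64% at 12 weeks. At 16 weeks this share went from 8.49% to 3.99%, 4.02% and 3.31%. At 12 weeks, leaving out MRL/lpr replicate 1 or replicate 2 gave 7 calls each, with 3.87% and 4.61% of all genes called higher. Refitting edgeR without the 4 libraries with neighbouring tissue left 0 calls for the earlier age, where 26 members had an unadjusted p under 0.05, and 6 calls for the later. In that refit 0.168% and 2.69% of all genes were called higher, so calls were lost across the whole table. The medians were then 2.47 and 4.01, and all 40 were above 0.

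**Figure D1:**
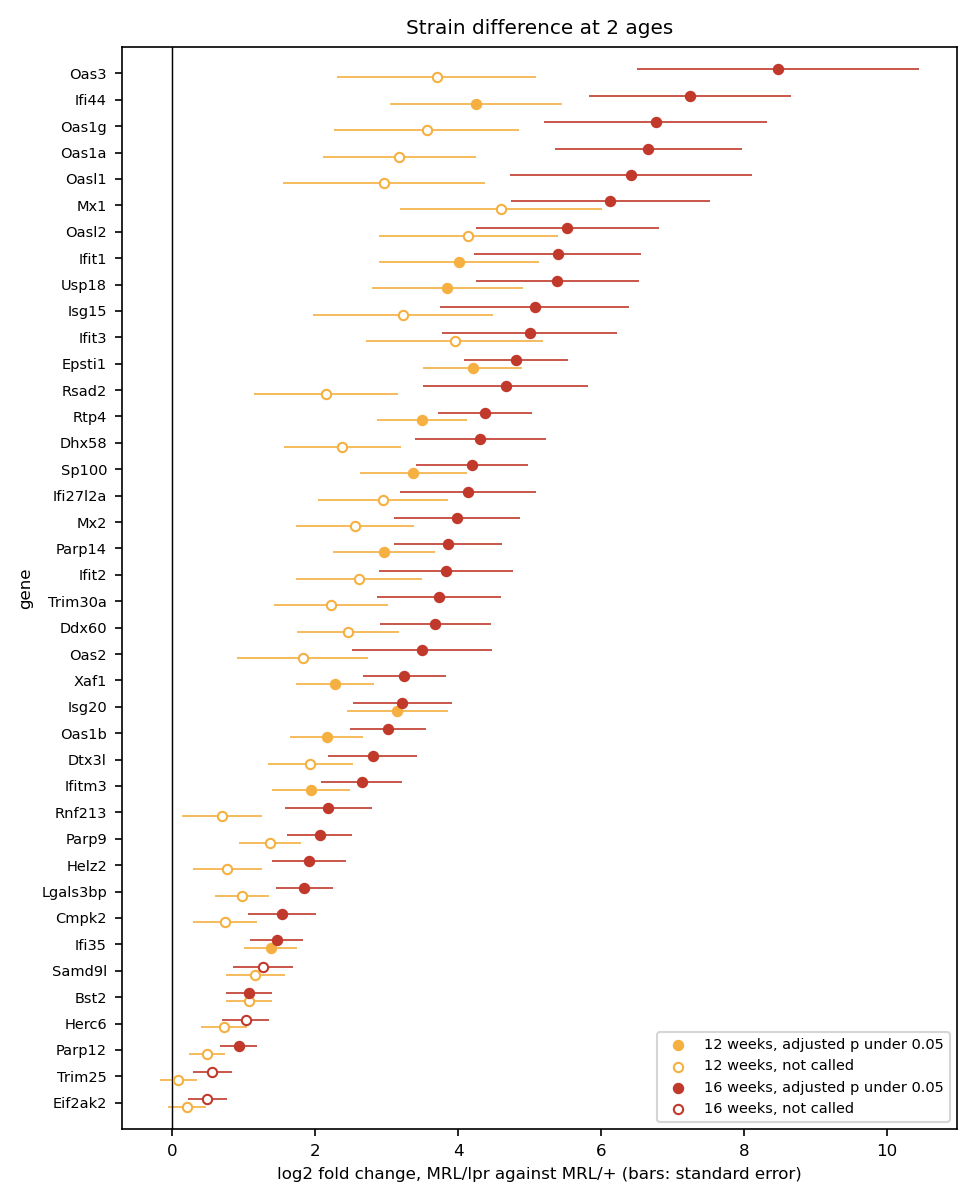
Log2 fold change of MRL/lpr against MRL/+ (x axis) for each of the 40 genes (y axis), at 12 weeks (orange) and 16 weeks (red), with bars of 1 standard error of the edgeR fit; filled points have an adjusted p under 0.05. All 80 points lie above 0, and 12 orange and 36 red points are filled.

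The genes differed widely in level. Scaled for exon length and depth (RPKM), the highest means over the 18 libraries were those of Bst2 (246), Ifitm3 (171), Lgals3bp (150) and Ifi27l2a (101). The lowest was Oas3 (0.212). Some abundant members had small strain differences at 16 weeks, as Bst2 (log2 fold change 1.07), and others large ones, as Ifi27l2a (4.14).

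Among the genes that bind viral RNA or block translation, 4 of 5 were called higher at 16 weeks and 2 of 5 at 12 weeks. Over all tested genes the shares called higher were 8.49% and 5.01%, which also stand beside the role counts below. Ifit1 (chromosome 19, 34640871 to 34650009, GRCm38) makes a protein that binds RNA lacking the methyl marks of host caps and blocks its translation. Its levels in MRL/+ were 0.763, 2.04 and 1.80 CPM at 12 weeks and 3.16, 1.75 and 1.6 CPM at 16 weeks. In MRL/lpr they ran from 8.36 to 44.3 (median 21.9) CPM at 12 weeks and from 7.87 to 349 (median 42.7) CPM at 16 weeks. Every MRL/lpr library lay above every MRL/+ library, and 1 library at 16 weeks lay far above the rest. The log2 fold change was 4.01 ± 1.12 (SE) at 12 weeks (edgeR adjusted p = 0.0413) and 5.39 ± 1.16 at 16 weeks (edgeR adjusted p = 0.00725). Ifit3, a relative of Ifit1 on the same chromosome, had 0.636, 0.862 and 1.26 CPM in MRL/+ at 12 weeks and 3.25, 1.27 and 1.44 CPM at 16 weeks. In MRL/lpr it ran from 6.18 to 24.9 (median 11.7) and from 3.85 to 273 (median 21.6) CPM, again with no overlap. It passed the test at 16 weeks (log2 fold change 5.0 ± 1.22, edgeR adjusted p = 0.0144) and not at 12 weeks (3.95 ± 1.24, adjusted p = 0.0673). Of its 50-base words, 51.2% also occur in transcripts of Ifit3b, so the counting may have split reads between these genes. Ifit2 had log2 fold changes of 2.61 and 3.83, and the exonuclease gene Isg20 of 3.14 and 3.22. Isg20 passed the filter on low counts only through MRL/lpr.

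Eif2ak2 (chromosome 17, 78852564 to 78882573) encodes PKR, the kinase that stops translation when it meets double-stranded RNA. In MRL/+ it had 34.3, 48.7 and 49.3 CPM at 12 weeks and 42.8, 37.8 and 46.4 CPM at 16 weeks. In MRL/lpr it had 38.7 to 71.1 (median 48.3) and 32.8 to 98.5 (median 58.3) CPM, and the groups overlapped at both ages. The log2 fold changes were 0.20 ± 0.27 and 0.49 ± 0.27 (edgeR adjusted p = 0.686 and 0.235). Eif2ak2 was among the members with an ISRE core in its window, so the core was also found in a gene whose change did not pass the test. The 12 members with the core had a median log2 fold change of 4.83 at 16 weeks, from 0.49 to 8.48, and the 18 without it of 2.49, from 0.56 to 7.25, with wide overlap. This is a description, with no test.

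The 2-5A synthetases, enzymes that sense double-stranded RNA and make the messenger that activates RNase L, and their Oasl relatives had a median log2 fold change of 3.18 at 12 weeks and, with genes near 0 counts in MRL/+ set at their bound or count ratio, of 5.53 at 16 weeks (6.42 as fitted). All 7 were called higher at 16 weeks, against 8.49% of all tested genes, and 1 of 7 at 12 weeks (Oas1b), against 5.01%. Of these, Oas1a, Oas1g, Oas2, Oas3 and Oasl1 passed the filter on low counts only through MRL/lpr. A difference was therefore built into these counts and medians. Oasl2 (chromosome 5, 114896936 to 114912234) had 0.953, 0.862 and 0.314 CPM in MRL/+ at 12 weeks and 1.58, 0.975 and 0.798 CPM at 16 weeks. In MRL/lpr it had 4.88 to 21.6 (median 12.3) and 2.95 to 206 (median 27.2) CPM. Every MRL/lpr library was above every control library, and the log2 fold changes were 4.14 ± 1.25 (edgeR adjusted p = 0.0581) and 5.53 ± 1.28 (edgeR adjusted p = 0.0105).

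Oas1a (chromosome 5, 120896256 to 120907521) had 0.254, 0.470 and 0.314 CPM in MRL/+ at 12 weeks and only 0.175, 0.0975 and 0.0798 CPM at 16 weeks. MRL/lpr libraries had 0.920 to 5.94 (median 2.73) and 1.15 to 49.1 (median 6.43) CPM. The groups did not overlap, and the log2 fold change was 3.18 ± 1.07 at 12 weeks (edgeR adjusted p = 0.0870) and 6.66 ± 1.31 at 16 weeks (edgeR adjusted p = 0.00410). Oas1a and its neighbour Oas1g share 57.6% and 54.7% of their 50-base words with other transcripts, mostly each other's, so their separate values are uncertain. Oas1b, which in many laboratory strains is a truncated gene, was the member of the family called at both ages. It had 1.02, 1.02 and 1.41 CPM in MRL/+ at 12 weeks and 0.965, 1.46 and 0.638 CPM at 16 weeks, against 2.96 to 7.79 (median 5.22) and 3.52 to 18.3 (median 6.26) CPM in MRL/lpr. The groups were apart at both ages, with log2 fold changes of 2.16 ± 0.51 (edgeR adjusted p = 0.0167) and 3.02 ± 0.54 (edgeR adjusted p = 0.00254).

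Some of the family were close to absent from MRL/+. Oas3 had 0 counts in all 3 MRL/+ libraries at 16 weeks, which allows a level of up to 0.0877 CPM over that group (3 counts), and MRL/lpr at 16 weeks was at least 43.8-fold higher. At 12 weeks its MRL/+ group held 3 counts in all, and the ratio of counts was 14.3 (exact 95% interval 4.74 to 71.0). Oas1g and Oasl1 each had 1 count in the pooled MRL/+ libraries at 16 weeks, and their ratios were 159 (28.4 to 6302) and 127 (22.6 to 5038). The intervals show that the size of these folds is poorly fixed, and they cover counting error only. Their fitted log2 fold changes were 8.48, 6.76 and 6.42 for Oas3, Oas1g and Oasl1, values that lean on the fit's handling of zeros. With such genes set at their bound or ratio the median of the 40 was 3.78, the same as before.

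Isg15, a ubiquitin-like protein, and the enzymes that attach or remove it and other ubiquitin marks gave 5 calls of 7 at 16 weeks and 1 of 7 at 12 weeks. Isg15 itself had log2 fold changes of 3.23 ± 1.25 (edgeR adjusted p = 0.139) and 5.07 ± 1.33 (edgeR adjusted p = 0.0209). Both Isg15 and Usp18 passed the filter on low counts only through MRL/lpr. Usp18, which removes Isg15 and damps the receptor, passed at both ages with 3.85 ± 1.06 and 5.39 ± 1.14 (edgeR adjusted p = 0.0388 and 0.00645). Herc6 is the ligase that attaches Isg15 in mice. It had 12.1, 16.7 and 14.98 CPM in MRL/+ at 12 weeks and 23.0, 20.4 and 16.8 CPM at 16 weeks, and 15.9 to 30.1 (median 25.1) and 24.6 to 82.1 (median 32.1) CPM in MRL/lpr. The groups overlapped at 12 weeks and not at 16 weeks, and the log2 fold changes of 0.72 ± 0.32 and 1.03 ± 0.33 did not pass (edgeR adjusted p = 0.208 and 0.0527). Of its 50-base words 23.8% also occur in an annotated transcript that runs through it on the same strand.

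Trim25, a ligase that activates the RNA sensor RIG-I, had the smallest fold change of the 40 at 12 weeks. It had 33.8, 34 and 41.8 CPM in MRL/+ at 12 weeks and 38.0, 28.8 and 31.3 CPM at 16 weeks, and 27.3 to 58.2 (median 33.6) and 30.6 to 79.7 (median 43.6) CPM in MRL/lpr. The groups overlapped, and the log2 fold changes were 0.08 ± 0.26 and 0.56 ± 0.27 (edgeR adjusted p = 0.880 and 0.177). At 12 weeks its sign changed without MRL/lpr replicate 6 (-0.08). Rnf213 (chromosome 11, 119393100 to 119487418), a very large ligase that coats lipid droplets and intracellular bacteria, had 23.5, 16.5 and 22.0 CPM in MRL/+ at 12 weeks and 11.6, 11.7 and 12.6 CPM at 16 weeks. In MRL/lpr it had 19.2 to 75.0 (median 24.0) and 15.2 to 128 (median 38.6) CPM. Its groups overlapped at 12 weeks and were apart at 16 weeks, where the log2 fold change was 2.18 ± 0.61 (edgeR adjusted p = 0.0301), after 0.70 ± 0.56 at 12 weeks (edgeR adjusted p = 0.499). Without MRL/lpr 16 weeks replicate 1 the 16-week call was lost (adjusted p = 0.0586), as for Bst2 and Oas2.

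Of the restriction factors, proteins that block a step of virus growth, 6 of 7 were called at 16 weeks and 1 of 7 at 12 weeks. Bst2, known as tetherin because it holds budding virus at the cell surface, had 97.8, 112 and 123 CPM in MRL/+ at 12 weeks and 126, 132 and 178 CPM at 16 weeks. MRL/lpr libraries had 150 to 337 (median 228) and 152 to 534 (median 260) CPM, so that the groups were apart at 12 weeks and overlapped at 16 weeks. The log2 fold change was 1.07 ± 0.32 at both ages (edgeR adjusted p = 0.0593 and 0.0429). Ifitm3, which hinders virus entry at the endosome, had 27.7, 32.7 and 31.7 CPM in MRL/+ at 12 weeks and 35.4, 30.8 and 29.0 CPM at 16 weeks. In MRL/lpr it had 71.4 to 198 (median 109) and 49.2 to 494 (median 148) CPM. No library overlapped, and it passed at both ages with 1.94 ± 0.55 and 2.65 ± 0.57 (edgeR adjusted p = 0.0443 and 0.00729).

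Rsad2, or viperin, makes a chain-ending nucleotide. It had 1.21, 1.25 and 1.18 CPM in MRL/+ at 12 weeks and 0.965, 0.585 and 0.718 CPM at 16 weeks, against 2.69 to 10.01 (median 4.87) and 2.62 to 86.8 (median 5.70) CPM in MRL/lpr. The libraries did not overlap, and the log2 fold changes were 2.15 ± 1.01 (edgeR adjusted p = 0.228) and 4.66 ± 1.16 (edgeR adjusted p = 0.0155). Mx1 and Mx2, dynamin-like proteins that trap viral components, had log2 fold changes of 4.60 and 6.13 (Mx1) and 2.56 and 3.98 (Mx2). Both passed the filter on low counts only through MRL/lpr. At 12 weeks the pooled MRL/+ libraries held 3 counts of Mx1, and the count ratio was 27.7 (9.30 to 136). Cmpk2, the neighbour of Rsad2 on chromosome 12, had the smaller 0.73 and 1.54. Samd9l, which blocks translation in infected cells, had 12.6, 20.2 and 28.5 CPM in MRL/+ at 12 weeks and 40.3, 27.1 and 21.5 CPM at 16 weeks, against 28.6 to 58.8 and 28.8 to 139 CPM in MRL/lpr. Its control libraries reached into the MRL/lpr range at 16 weeks and just below it at 12 weeks, and 1.16 ± 0.42 and 1.27 ± 0.42 did not pass (edgeR adjusted p = 0.108 and 0.0587).

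**Figure D2:**
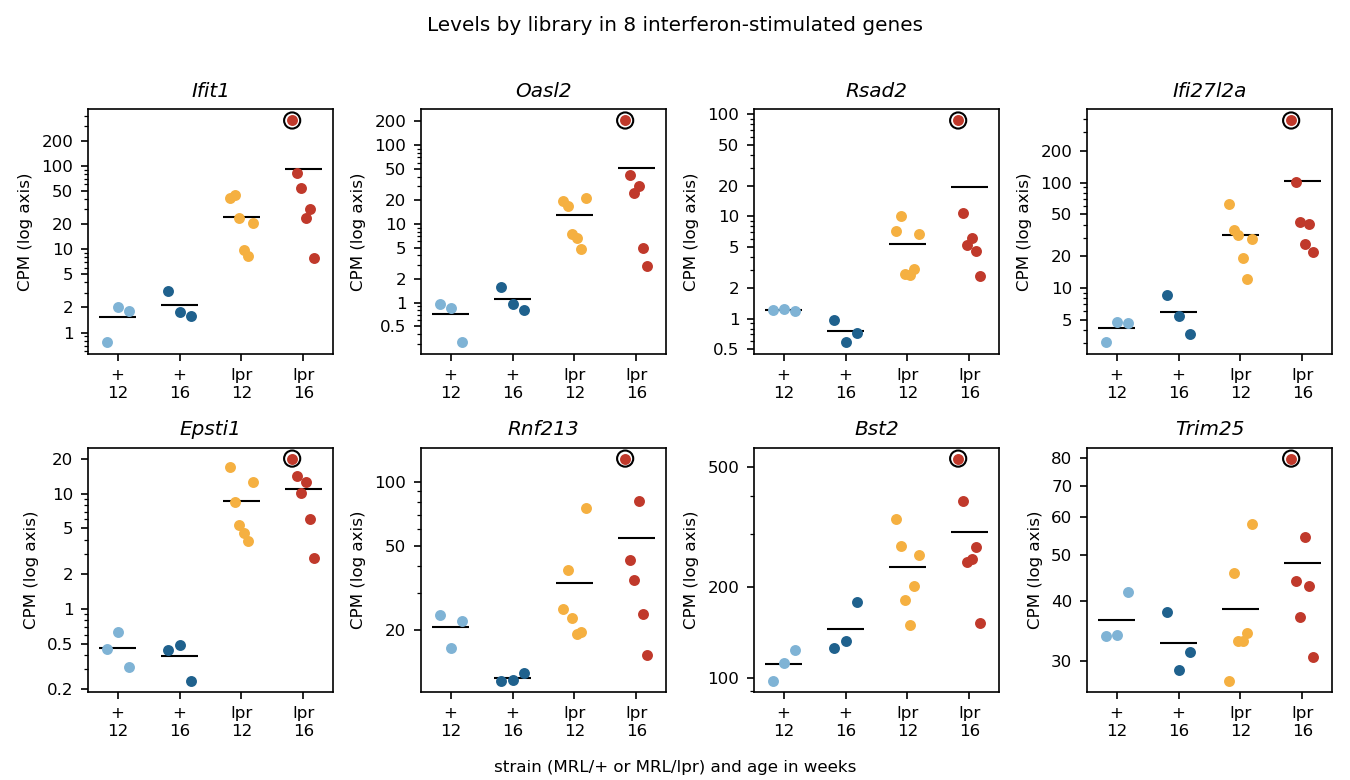
CPM (log axis) of 8 members by strain and age in weeks; each point is 1 library, the line is the group mean and the ring marks MRL/lpr 16 weeks replicate 1. The ringed library is the highest in all 8 panels, at 349 CPM for Ifit1 and 20.2 CPM for Epsti1, and Trim25 shows the strains overlapping.

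Of the 8 genes of less settled or mixed function, 8 were called at 16 weeks and 6 at 12 weeks. Epsti1 (chromosome 14, 77904239 to 78002656), an interferon-induced gene studied in macrophages, had the smallest p of the 40 at both ages. Like Ifi44, Epsti1 passed the filter on low counts only through MRL/lpr, so a difference was built into its choice. It had 0.445, 0.627 and 0.314 CPM in MRL/+ at 12 weeks and 0.439, 0.487 and 0.239 CPM at 16 weeks. MRL/lpr libraries had 3.92 to 17.1 (median 6.94) and 2.79 to 20.2 (median 11.4) CPM, with no overlap. The log2 fold changes were 4.20 ± 0.69 (edgeR adjusted p = 0.00269) and 4.81 ± 0.73 (edgeR adjusted p = 0.00144). Rtp4, a receptor chaperone that also restrains viruses, had 1.59, 2.98 and 2.12 CPM in MRL/+ at 12 weeks and 2.89, 1.27 and 1.83 CPM at 16 weeks, against 10.9 to 46.7 (median 24.4) and 10.3 to 82.7 (median 37.2) CPM. The groups were apart and it passed at both ages, with 3.50 ± 0.63 and 4.38 ± 0.66 (edgeR adjusted p = 0.00414 and 0.00144).

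Sp100, a component of nuclear bodies, also passed at both ages. It had 1.65, 1.10 and 1.26 CPM in MRL/+ at 12 weeks and 1.58, 1.66 and 0.957 CPM at 16 weeks, and 6.13 to 30.2 (median 9.57) and 5.41 to 48.4 (median 25.7) CPM in MRL/lpr. The groups were apart, and the log2 fold changes were 3.37 ± 0.75 and 4.19 ± 0.78 (edgeR adjusted p = 0.0117 and 0.00313). Ifi27l2a, a small mitochondrial protein gene that is among the strongest interferon markers in mouse brain, had 3.05, 4.78 and 4.63 CPM in MRL/+ at 12 weeks and 8.51, 5.46 and 3.67 CPM at 16 weeks. In MRL/lpr it had 12.1 to 62.9 (median 30.6) and 22.0 to 388 (median 41.6) CPM. The groups did not overlap, and 2.94 ± 0.91 and 4.14 ± 0.95 gave 1 call, at 16 weeks (edgeR adjusted p = 0.0631 and 0.00987).

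Lgals3bp, a secreted glycoprotein, was the most counted of the 40. It had 212, 222 and 219 CPM in MRL/+ at 12 weeks and 159, 188 and 199 CPM at 16 weeks, and 252 to 767 (median 387) and 307 to 1202 (median 561) CPM in MRL/lpr. The groups were apart at both ages, and the call came at 16 weeks (log2 fold change 1.85 ± 0.40, edgeR adjusted p = 0.00764, after 0.97 ± 0.38 and 0.145). Ifi44, Xaf1 and Ifi35 were called at both ages, with log2 fold changes at 16 weeks of 7.25, 3.25 and 1.46. Of the exon bases of Ifi35, 16.8% overlap another gene on the opposite strand. The kit that the labels name does not mark strand, so reads of such overlapping pairs cannot be told apart.

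The 3 helicase genes and the 3 PARP genes were all called at 16 weeks, and of these 6 only Parp14 passed at 12 weeks. Ddx60, which aids RIG-I-like sensing, had 1.14, 1.49 and 2.67 CPM in MRL/+ at 12 weeks and 1.75, 0.975 and 1.36 CPM at 16 weeks, against 4.73 to 15.8 (median 9.54) and 2.95 to 51.3 (median 12.1) CPM. The groups were apart, with 2.46 ± 0.72 (edgeR adjusted p = 0.0509) and 3.68 ± 0.77 (edgeR adjusted p = 0.00604). Helz2, a nuclear coactivator, had 18.5, 12.6 and 16.0 CPM in MRL/+ at 12 weeks and 9.39, 10.7 and 10.4 CPM at 16 weeks, against 15.4 to 55.9 (median 21.1) and 15.1 to 83.8 (median 27.3) CPM. It overlapped at 12 weeks and not at 16 weeks, with 0.77 ± 0.48 and 1.92 ± 0.52 (edgeR adjusted p = 0.380 and 0.0248).

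Parp12, an ADP-ribosylating enzyme that blocks virus translation, had 34.1, 42.7 and 41.5 CPM in MRL/+ at 12 weeks and 39.4, 32.8 and 37.6 CPM at 16 weeks, against 43.6 to 63.6 (median 55.3) and 41.4 to 122 (median 60.5) CPM. Although the groups did not overlap at either age, the difference was small, at 0.48 ± 0.25 and 0.93 ± 0.26 (edgeR adjusted p = 0.282 and 0.0280). Parp9, which works in a complex with Dtx3l, had 8.58, 13.9 and 14.4 CPM in MRL/+ at 12 weeks and 11.8, 10.6 and 9.41 CPM at 16 weeks, against 19.7 to 40.9 (median 32.9) and 14.0 to 89.4 (median 39.7) CPM. The groups were apart, with 1.37 ± 0.44 and 2.06 ± 0.46 (edgeR adjusted p = 0.0740 and 0.00833). Parp9 and Dtx3l lie head to head on chromosome 16, and 9.40% and 8.0% of their exon bases overlap on opposite strands. Their partner gene Parp14 had the larger 2.96 and 3.86.

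From 12 to 16 weeks in MRL/lpr, none of the 40 passed the test, although all 40 log2 fold changes were above 0, as were 53.2% over all genes. The background in this comparison was 0.0181% of genes called higher. The median of the 40 was 0.83, from 0.23 (Eif2ak2) to 2.22 (Isg15), beside 0.02 over all tested genes. At an unadjusted p under 0.05 stood 18 of 40, against 2.86% of all genes on the higher side. The smallest adjusted p was 0.50, for Herc6, with edgeR. DESeq2 called 0 as well (22 at an unadjusted p under 0.05), and so did limma's voom with sample weights (31). For no member did the 16-week libraries lie above all 12-week libraries, which held for 0.139% of genes.

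One library weighed most on the age difference. MRL/lpr 16 weeks replicate 1 was the highest of all 18 libraries for 40 of 40 members, against 8.78% of all tested genes. It held between 27.6% (Eif2ak2) and 75.2% (Mx1) of the summed CPM of the 6 libraries of its group, where equal libraries would hold 16.7%, and more than 50% for 18 members. Its level was 1.18 times (Epsti1) to 9.26 times (Mx1) that of the next library, with a median of 2.35. For 19 members the ratio was at least 3, among them Isg15 (7.24), Oasl1 (8.14), Ifit2 (6.52) and Oas3 (6.33), and for 19 it was under 2. The second-highest library was 16 weeks replicate 2 for 26 members and 16 weeks replicate 4 for 8 (Oas2, Oas3, Oasl1, Parp14, Dtx3l, Sp100, Lgals3bp and Rnf213). A 12-week library came second for the other 6.

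**Figure D3:**
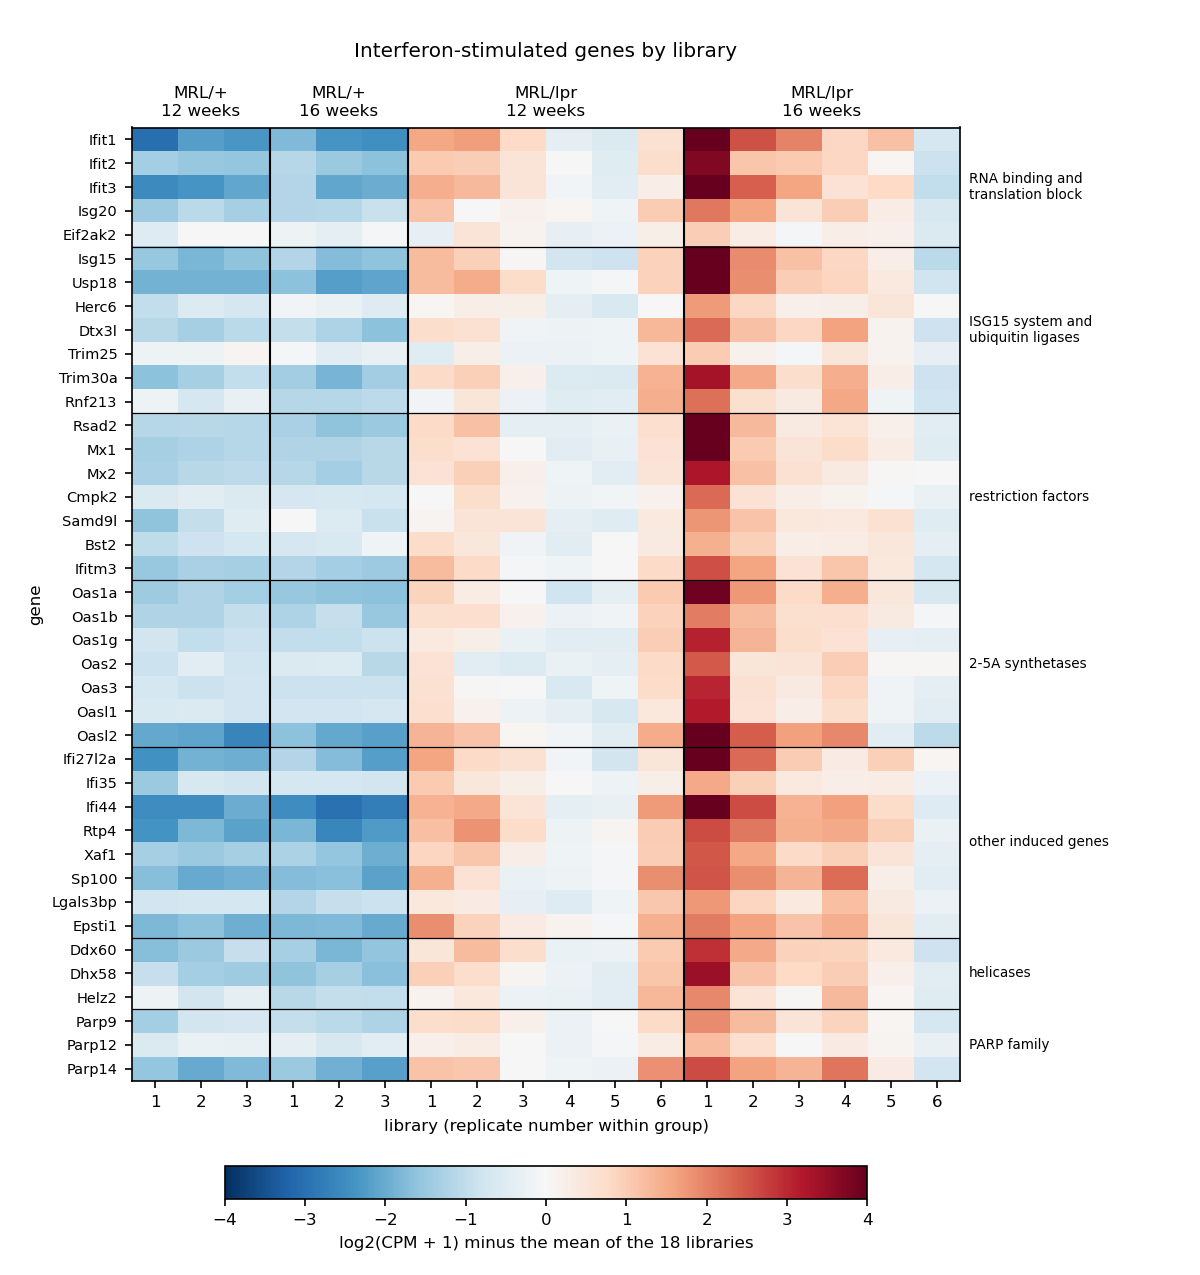
Level of each of the 40 genes (rows, in role groups) in each of the 18 libraries (columns, by replicate number), as log2(CPM + 1) minus the gene's mean over the libraries; colours saturate at 4 in either direction. The 6 MRL/+ columns are mostly blue, MRL/lpr 16 weeks replicate 1 is the darkest red column, and replicate 6 of that group is mostly pale blue.

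Ifit3 and Isg15 show the shape of the age difference. Ifit3 had 24.9, 22.6, 12.8, 7.88, 6.18 and 10.5 CPM in the MRL/lpr libraries of 12 weeks and 273, 48.8, 27.5, 13.2, 15.8 and 3.85 CPM in those of 16 weeks. Isg15 had 11.7, 9.14, 4.43, 2.17, 1.92 and 8.95 CPM, then 134, 18.5, 10.8, 8.26, 5.29 and 1.47 CPM. In both genes the second-highest 16-week library was within 2 times the highest 12-week library, and replicate 6 of 16 weeks lay below all 12-week libraries. Their age differences were 2.17 ± 0.76 and 2.22 ± 0.81 on the log2 scale (edgeR adjusted p = 0.561 and 0.579).

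Without that library the estimated age difference was smaller for all 40 genes. The median log2 fold change became 0.34 and the largest 0.82 (Oas1a), where 18 members had reached at least 1 before. All 40 were still above 0, and 1 had an unadjusted p under 0.05, Herc6 with 0.46 ± 0.18, at an edgeR adjusted p of 0.946. It was then 0.65 ± 0.50 for Ifit3 and 0.50 ± 0.54 for Isg15, 0.15 ± 0.38 for Rsad2 and 0.40 ± 0.44 for Mx1. Comparing medians, the other 5 libraries of 16 weeks stood at 0.998 times (Mx2) to 2.71 times (Oas2) the 12-week level, with a median of 1.24, and above 1 for 39 of 40. In the strain comparison at 16 weeks, 33 of 40 were called without the library, against 6.73% of all genes called higher.

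**Figure D4:**
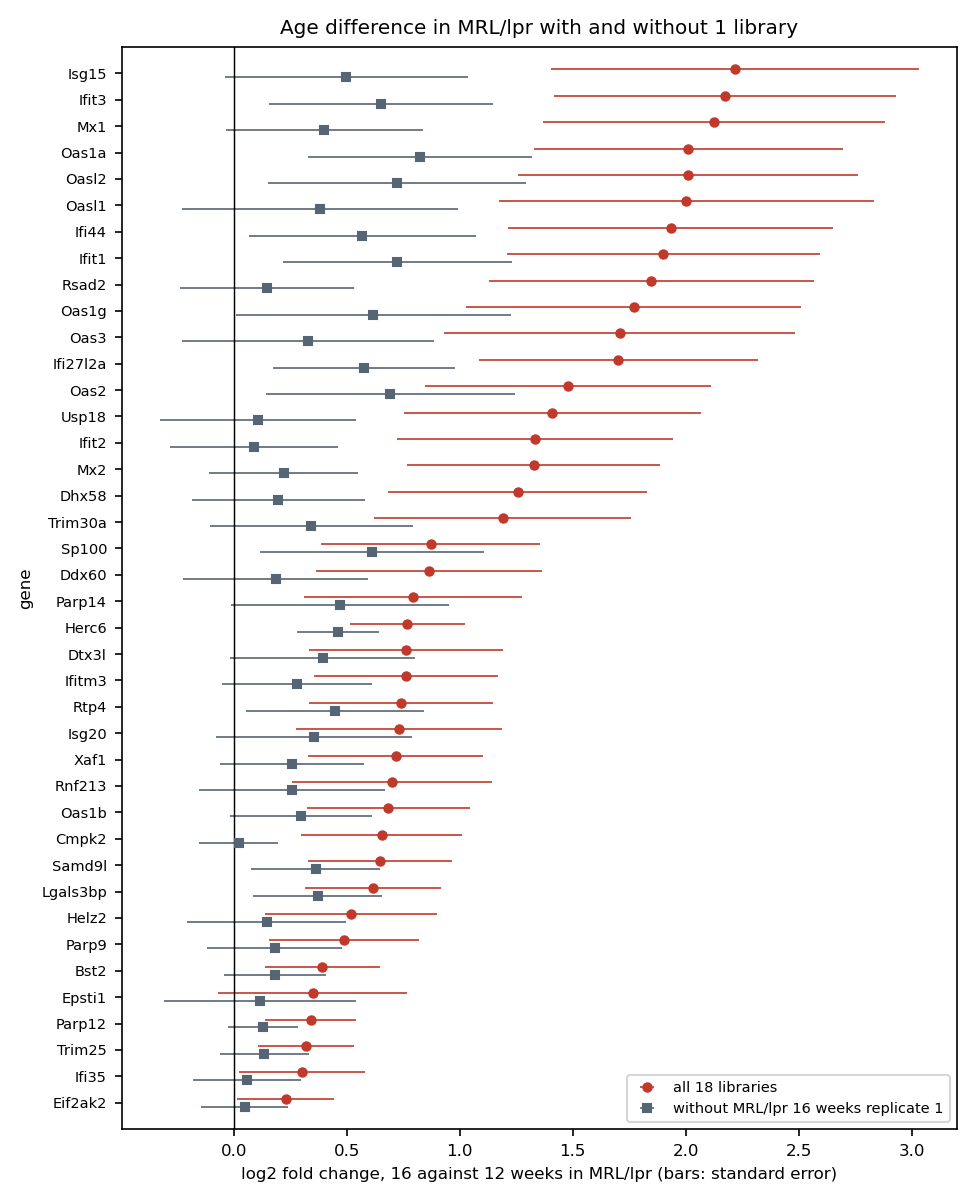
Log2 fold change from 12 to 16 weeks in MRL/lpr (x axis) for each of the 40 genes, from all 18 libraries (red circles) and without MRL/lpr 16 weeks replicate 1 (grey squares), with bars of 1 standard error. All grey squares lie left of their red circles, and all are below 1.

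At the other end, replicate 6 of the 16-week group was the lowest of its group for 39 members and the lowest of all 12 MRL/lpr libraries for 27, against 11.1% of all genes. Even so it lay above the highest 16-week MRL/+ library for 36 of 40. The 16-week libraries therefore held both the highest and the lowest MRL/lpr levels. Summed over the 40 genes they had 847 to 5824 (median 1879) CPM, the 12-week libraries 862 to 2014 (median 1385) CPM, and MRL/+ libraries 563 to 659 CPM.

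A second pattern ran across both ages and concerned which members were high. MRL/lpr 12 weeks replicate 6 was the highest of its group for 18 members, among them Rnf213, Helz2, Trim25, Lgals3bp, Sp100, Parp14, Dtx3l and 6 of the 7 synthetase genes. Replicate 1 of that group led for 11, among them Ifit2, Ifit3, Isg15 and Mx1, and replicate 2 for 10, among them Ifit1, Rsad2, Usp18 and Mx2. Rnf213 had 75.0 CPM in 12 weeks replicate 6 and 80.9 CPM in 16 weeks replicate 4, and 15.2 to 42.6 CPM in the other MRL/lpr libraries apart from 16 weeks replicate 1 (128 CPM). Ifit1 had 20.4 and 23.9 CPM in those libraries, below 349, 81.3, 54.7, 44.3, 40.7 and 30.6 CPM in 6 of the others. The ratio of Ifit1 to Rnf213 CPM was 0.272 and 0.295 in the pair and 0.424 to 2.72 in the other 10 MRL/lpr libraries. The same pair had the highest sums of 8 endothelial markers, 179 and 184 CPM against at most 117 CPM in any other library. Pecam1, an adhesion molecule of the vessel wall, had 28.1 and 27.9 CPM there and at most 14.4 CPM elsewhere, and Tie1 12.8 and 14.6 CPM against at most 9.6 CPM. Their part in the pattern was not tested. Without the pair, 11 members were called at 12 weeks (7.52% of all genes higher) and 35 at 16 weeks (8.03%). The median age difference in MRL/lpr was 1.07.

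Leukocyte markers moved with the members too. MRL/lpr 16 weeks replicate 1 had the highest leukocyte sum, 1074 CPM, and replicate 6 the lowest of MRL/lpr, 117 CPM. The leukocyte sum of replicate 1 was 1.41 times that of the next library, MRL/lpr 12 weeks replicate 1 (760 CPM), and the ratio of the members to their own next library was below that for 7 of 40 and above it for 33, with the median of 2.35 given above. Its macrophage sum of 1172 CPM and its plasma cell sum of 2610 CPM were also the highest, close to the next values of 1000 and 2452 CPM. A part of these cells in the members' levels was not tested. Markers of plasmacytoid dendritic cells, the blood cells that make most interferon alpha, summed over 8 genes to 71.1 CPM in MRL/lpr 16 weeks replicate 1. Over all 18 libraries the sum was between 41.2 and 90.1 CPM, and was highest in MRL/+ 12 weeks replicate 1. That control library also had the highest cerebellar sum (321 CPM), and the part of such tissue in the marker sum was not tested. Weighting genes equally gave another order. The mean over the 7 tested markers of log2 CPM minus the gene's own mean was 0.70, 0.65, 0.54, 0.14, 0.049 and 0.016 in MRL/lpr 16 weeks replicates 1 to 6. In MRL/lpr 12 weeks replicates 1 to 6 it was 0.87, 0.17, 0.16, 0.14, -0.18 and 0.16, and in MRL/+ between -0.87 and -0.089. So MRL/lpr 12 weeks replicate 1 was the highest of all, and replicate 5 of that group lay within the MRL/+ range. Of the 7 markers, 1 was called higher in MRL/lpr at 12 weeks and 2 at 16 weeks, against 5.01% and 8.49% of all genes. Their part in the members' levels was not tested.

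**Figure D5:**
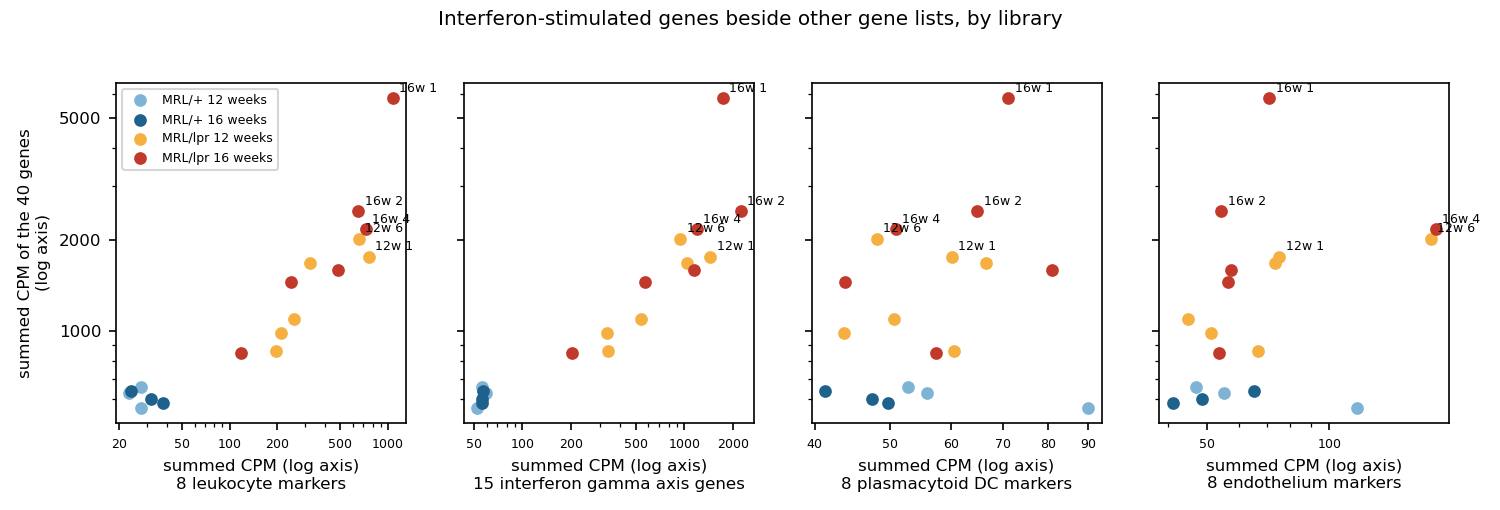
Summed CPM of the 40 genes (y axis, log) against summed CPM of 4 other gene lists (x axes, log), 1 point per library, coloured by group, with some MRL/lpr libraries named by age and replicate. MRL/lpr 16 weeks replicate 1 (5824 CPM) stands highest on the y axis, while 16 weeks replicate 2 has the larger interferon gamma sum and 16 weeks replicate 4 and 12 weeks replicate 6 the larger endothelial sums.

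In MRL/+ none of the 40 genes passed the test between the ages: 0 were called, where the background was 0% called. At an unadjusted p under 0.05 there were also 0 with edgeR, DESeq2 and voom, against 6.86% of all genes on the higher side. With edgeR on the MRL/+ libraries alone, 28 members passed the filter on low counts, of which 5 had an unadjusted p under 0.05 and 0 were called. The median was -0.13, and 14 of 40 were above 0, against 44.2% of all genes. The smallest p values belonged to Herc6 (log2 fold change 0.46 ± 0.37, edgeR adjusted p = 0.548), Rnf213 (-0.79 ± 0.65, adjusted p = 0.559) and Samd9l (0.54 ± 0.46, adjusted p = 0.577). The strain by age interaction, which tests whether the strain difference was larger at 16 weeks, likewise gave 0 calls, with a background of 0%. At an unadjusted p under 0.05 there were 0 with edgeR (6.52% of all genes on the positive side), 3 with DESeq2 and 4 with voom. All 40 estimates were above 0, as were 56.0% over all genes, with a median of 1.10. The 3 with the smallest p were Oas1a (3.49 ± 1.68, edgeR adjusted p = 0.362), Rnf213 (1.49 ± 0.79, adjusted p = 0.370) and Rsad2 (2.52 ± 1.40, adjusted p = 0.379). Without MRL/lpr 16 weeks replicate 1 the median was 0.38 and 32 of 40 were above 0. The interaction and the age comparisons share libraries with the strain comparisons, so their signs are not independent of each other.

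The interferon genes themselves were barely seen. Of 17 ligand genes, 15 had 0 counts in every library, and the whole set gave 5 counts. Of these, 4 were Ifnb1 (interferon beta), with 3 in MRL/lpr 16 weeks replicate 1 and 1 in a 12-week MRL/lpr library, and 1 was Ifna15. A count of 0 allows up to 0.0385 CPM over the pooled 16-week MRL/lpr group, so lower levels were not detectable at this depth. That limit covers counting error only. The handling of reads with several alignments is not given, so reads that match several ligand genes may be missing from these counts.

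Downstream of the receptor, the transcription factor gene Irf9 was called higher at both ages, with log2 fold changes of 1.04 and 1.57 at 12 and 16 weeks (edgeR adjusted p = 0.0150 and 0.00163). Stat2 (2.20, edgeR adjusted p = 0.00833) and Tyk2 (0.87, adjusted p = 0.0245) passed at 16 weeks only. The receptor chains Ifnar1 and Ifnar2 and the kinase Jak1 were not called, with 0.38, -0.16 and 0.59 at 16 weeks. Among the factors that induce interferon genes, 4 of 5 were called at 16 weeks and 2 at 12 weeks. Beside this count and those of the lists below stand 8.49% of all genes called higher at 16 weeks and 5.01% at 12 weeks. Irf7, itself an interferon-stimulated gene and the main amplifier of interferon alpha, had 2.44 at 12 weeks (edgeR adjusted p = 0.168) and 4.86 at 16 weeks (edgeR adjusted p = 0.0128), and an age difference of 1.76 in MRL/lpr that did not pass (adjusted p = 0.631). Its level was 340 CPM in MRL/lpr 16 weeks replicate 1 and 8.52 to 48.5 CPM in the rest of that group. At 12 weeks MRL/lpr libraries had 9.72 to 34.5 CPM, so 1 library weighed most on the later values here as well.

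Of 14 sensors of nucleic acid and their adaptors, 8 were called higher at 16 weeks and 6 at 12 weeks. Zbp1, a sensor of Z-form nucleic acid, had 6.61 and 7.12, and the endosomal receptor Tlr7 had 2.47 and 2.82. In MRL/+ libraries Zbp1 had only 0.0784 to 0.292 CPM, so the size of its fold is poorly fixed. Members with levels that low in MRL/+ passed the filter on low counts only through MRL/lpr, so a difference may be built in here too. The RNA sensor Ifih1 passed at 16 weeks (1.71, edgeR adjusted p = 0.0130), while Ddx58, which encodes RIG-I, did not (1.28, edgeR adjusted p = 0.0546), and neither did the DNA sensor Mb21d1 (1.88, adjusted p = 0.0634). Of 8 negative regulators, 7 were tested, and 5 were called at 16 weeks and 3 at 12 weeks, among them Nlrc5 (3.21 and 4.06). Adar, an RNA-editing enzyme with an interferon-driven form, passed at 16 weeks (1.16, edgeR adjusted p = 0.00987) and not at 12 weeks (0.19, adjusted p = 0.687). None of these lists had a call between the ages in MRL/lpr.

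Of 15 genes of the interferon gamma axis, 11 were called higher at 12 weeks and 12 at 16 weeks. Cxcl9, a chemokine that draws T cells, had log2 fold changes of 8.33 and 9.12, and Gbp2, a guanylate-binding protein, of 4.55 and 4.83. Cxcl9 had only 0.0975 to 0.705 CPM in MRL/+ libraries, and Ifng 0 CPM. The size of the Cxcl9 fold is therefore poorly fixed, and a difference may be built into the choice of such genes by the filter on low counts. Between the ages in MRL/lpr the 15 genes had a median of 0.47, from 0.05 to 1.02, beside 0.83 for the 40 members, and none passed. The highest sum of the axis was in MRL/lpr 16 weeks replicate 2, at 2229 CPM, with 1732 CPM in replicate 1. With genes weighted equally, as above, replicate 1 was the higher, at 2.59 beside 2.44.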

How the data were processed

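RNA of 18 choroid plexus libraries had been sequenced. The authors deposited raw counts of reads per gene; per the submitters' processing notes, the tools were STAR 2.5.3a, featureCounts 1.26.0 and DESeq2 1.16.1 on GRCm38. Not given in the sources used here are the annotation release, the strand setting and the handling of reads with several alignments. From the counts, filterByExpr by group left 16598 genes, libraries were scaled with TMM, and edgeR 4.0.16 (R 4.3.3) (robust quasi-likelihood) fitted 1 mean per group over the 18 libraries. P-values were adjusted with Benjamini-Hochberg over all genes and called under 0.05; errors on log2 fold changes are standard errors. Total counts were 11164284 to 14602253 per library, and CPM uses TMM-scaled sizes of 10259862 to 15733694. No pair of libraries within a group agreed within sampling noise (smallest chi-square per gene 6.10 over 36 pairs). Full values are printed for the 2 most counted members of each role, the 3 smallest p of each comparison and, beyond that rule, for genes on which a result turns. Alternatives were DESeq2 1.42.0, limma 3.58.1 voom, other scalings and filters, the replicate block and leaving out libraries; 1 was added after seeing the data. Members and lists were chosen with earlier results of these data known. Intervals and floors of 3 counts cover counting error only.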

Additional observations from a re-analysis of the deposited data

Results flagged for a closer look

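Of 82 values in groups of 6 libraries that were checked for a sample far from the others, 1 stood apart. For Cmpk2, a mitochondrial nucleotide kinase gene next to Rsad2, MRL/lpr 16 weeks replicate 1 had 91.9 CPM, and its gap to the next library of its group took 0.659 of the group's range on the log2 scale, above Dixon's critical value for 6 samples. Chance flags about 1 in 20 such groups.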

How the results depend on the processing

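Without MRL/lpr 16 weeks replicate 1 the median of the 40 log2 fold changes went from 3.78 to 2.89 for the strains at 16 weeks, from 0.83 to 0.34 between the ages in MRL/lpr and from 1.10 to 0.38 for the interaction. Counts of calls also moved. At 12 weeks, where 12 members were called, the count was 29 with DESeq2, 28 when only the groups compared were fitted, 7 without a filter on low counts, 0 without the 4 libraries with neighbouring tissue, and 2 to 14 when 1 library at a time was left out. Over all genes 5.01% were called higher, and in these settings, in the same order, 8.05%, 4.90%, 2.07%, 0.168% and 1.33% to 5.87%. At 16 weeks, where 36 were called, the count was 20 with only the groups compared, 6 without those 4 libraries, and 13 to 38 with 1 library left out. Over all genes 8.49% were called higher, and in these settings 6.53%, 2.69% and 3.31% to 10.4%. Some of these fits also used fewer libraries, and the cause of the moves was not tested. Scaling to the choroid plexus epithelium list put the all-gene median at 0.25 (12 weeks) and 0.45 (16 weeks) on the log2 scale, and called 15 and 40 members, with 24.2% of all genes higher at 16 weeks. The members' medians were then 2.66 and 4.26. The sign of Trim25 at 12 weeks reversed with voom (-0.029), without the endothelial pair (-0.0768) and without MRL/lpr 12 weeks replicate 6 (-0.0773), and with 1 library left out at a time it ran from there to 0.187. Of the values of single genes, 2141 kept their side of the threshold, 187 lost it, 75 gained it and 3 reversed. No setting called a member in the age comparisons or the interaction, so the values lost or gained all come from the strain comparisons. The number kept therefore overstates how stable the strain calls were.

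The labels do not state whether replicate numbers pair the samples. Of 21 same-number pairs, 6 correlated above 0.1 in their deviations, with a range from -0.62 to 0.45. Among 12 MRL/lpr libraries, 3 correlated best with their own number. Such correlations show no general pairing and cannot exclude one. With the replicate number as a block, 24 members were called at 12 weeks (5.15% of all genes higher), 36 at 16 weeks (7.30%), and 0 between the ages in MRL/lpr. Depth limits the genes near 0 counts in MRL/+ (Oas3, Oas1g, Oasl1), whose fold sizes are uncertain.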
